A study of Saccharomyces cerevisiae with 4 samples.

Results

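Ty elements are the long terminal repeat retrotransposons of Saccharomyces cerevisiae. The RNA polymerase II transcript of an element serves as mRNA for its proteins and as the template that is reverse transcribed and integrated into the genome again. The gag reading frame encodes the structural protein of the virus-like particle, and pol encodes protease, integrase and reverse transcriptase with RNase H. Pol is made as a Gag-Pol fusion, for which the ribosome skips 1 base at the end of gag, so that an annotated gag-pol frame has 2 parts with a gap of 1 base between them. Of the 6692 open reading frames counted here, 42 have this structure and a coding length over 4000 bases, and these were taken as the Ty gag-pol reading frames. Their counts were not used to choose them.

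The RNA was sequenced from 2 eluates and 2 lysates of BY4741 cells, a haploid laboratory strain. Every sample carried the allele sub2-FLAG-3C-ProtA::kanMX4, a tagged form of Sub2, the RNA helicase of mRNA export, together with hpr1-TS::hphNT1, a tagged form of the THO complex subunit Hpr1. The eluates are the particles released with biotin after purification through both tags, and the lysates are the total lysate before the first affinity step, from cells grown in YPD. The comparison asks which transcripts are over- or underrepresented in the purified nuclear mRNPs relative to the whole RNA pool. Total counts per library ranged from 11448755 to 29903666. URA3, LEU2 and MET17, which BY4741 lacks, had 0 counts in each library, and the mitochondrial reading frames took from 0.00685% to 0.00717% of the eluate counts and from 1.31% to 1.33% of the lysate counts. Fold changes below are eluate over lysate on the log2 scale from edgeR's quasi-likelihood test, fitted on all 6191 reading frames that passed edgeR's filter on low counts, with p-values adjusted over all of them. All 42 Ty frames passed the filter. CPM is the read count relative to the library size as scaled by the trimmed mean of M-values (TMM). Both scales are relative to the RNA pool of a fraction. In such bulk libraries, fewer cells with a transcript and less of it per cell cannot be told apart.

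The 42 frames lie on 14 chromosomes, with 26 on the plus and 16 on the minus strand. Chromosome IV holds 8 of them and chromosome VII holds 5. The sources used here name no Ty family for a frame, and Ty1 to Ty5 were not assigned. Instead, frames were grouped by geometry, joining those whose part before or after the skipped base differed by at most 3 bases. This gave 4 groups. The largest has 28 frames, most of them 5268 bases long, with first parts from 1301 to 1416 bases and second parts from 3510 to 3967 bases (the 5268-base group). The next has 10 frames of 5313 bases, with first parts from 1290 to 1294 bases and second parts from 4019 to 4023 bases (the 5313-base group). YGR109W-B and YIL082W-A form a pair with first parts of 850 and 851 bases. YHL009W-B and YJL113W form a pair with second parts of 4323 and 4326 bases and first parts of 1086 and 321 bases.

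The counts tell little about the gag part. Of the 42 frames, 41 contain a separate gag-only reading frame of 873 to 1437 bases that starts at the same codon, so that its sequence fits both annotations. All 41 gag-only frames had 0 counts in each of the 4 libraries. Since reads that fit both annotations may not have been counted, these values set no limit on gag-only RNA. Outside the Ty elements, 9 frames lie within other frames on their strand with at most 1 base outside them. Of these, 8 had 0 counts in every library, and YPR169W-A, named after its value was seen, had 1 count in all. By coordinates, a Ty frame has from 3493 to 4647 bases that no other frame overlaps, nearly all of them in the second part. No Ty frame overlaps a frame on the opposite strand. Like sequence in other copies was not taken out of these lengths. YJL113W is the exception without an overlapping gag-only frame. The frame next upstream of it on the same strand, YJL114W (sacCer3, chromosome X, 197915 to 198595, a gap of 82 bases), was counted. It had 203 and 259 eluate counts against 23 and 22 lysate counts, a log2 fold change of 2.54 (standard error 0.212, edgeR adjusted p = 1.87e-08), next to 2.36 for YJL113W itself. No source used here says how reads that fit several places or several frames were treated. Counts of near-identical copies are therefore uncertain one by one, and a group sum still lacks the reads that were not counted.

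As a whole, the Ty gag-pol frames took a larger share of the eluate than of the lysate counts. Eluates 1 and 2 held 74480 and 98150 such counts, or 0.332% (95% exact binomial interval 0.329% to 0.334%) and 0.328% (0.326% to 0.330%) of all counts. Lysates 1 and 2 held 15496 and 15400, or 0.105% (0.103% to 0.106%) and 0.135% (0.132% to 0.137%). Intervals cover counting error only, with reads taken as independent, and leave out differences between libraries. The eluates lay close together and above both lysates, which differed from each other. The mean eluate share was 2.76 times the mean lysate share (two-sided exact permutation test, p = 0.33, the smallest p possible with 2 libraries against 2).

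**Figure D1:**
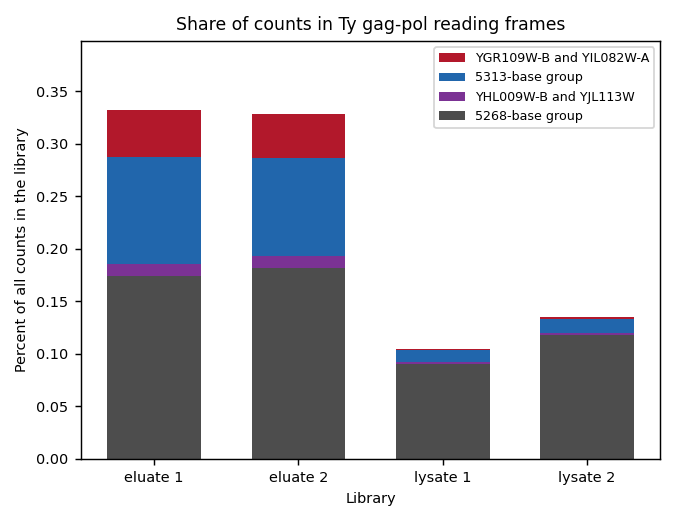
Percent of all counts in each library (vertical axis) that fell in the Ty gag-pol reading frames, by library, with the 4 groups stacked. The eluates stand at 0.332% and 0.328% and the lysates at 0.105% and 0.135%, and each of the 4 groups is a wider band in the eluates.

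Of the 42 frames, 36 rose and 1 fell in the eluate (edgeR adjusted p under 0.05), and 5 did not pass. Over the whole table, 44.2% of the reading frames tested were higher and 44.8% lower. Both eluates were above both lysates in CPM for 38 of the 42 frames, against 46.9% of all frames tested. The median log2 fold change of the Ty frames was 1.80, with quartiles at 0.94 and 2.54, against -0.01 over all frames tested. Long genes are a closer setting for frames of this length. The 188 tested frames over 4000 bases that are no Ty frames had a median of 2.14, and 177 of them were higher and 4 lower. Of the Ty frames, 14 lay above that median. Counted among frames over 4000 bases only, the Ty share turned round. It was 1.16% and 1.07% in the eluates, with lysate values of 1.22% and 1.53%, 0.813 times as high in the eluates (two-sided exact permutation test, p = 0.33). By these counts, the Ty frames were higher relative to the whole pool and lower relative to other long frames, and the groups differed widely in this. The gag part, at the start of the frame, may be missing from the counts of 41 Ty frames. Coverage of the eluates was biased to the start of transcripts, per the study, though less so in single profiles. What this does to the comparison with other long frames was not tested.

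**Figure D2:**
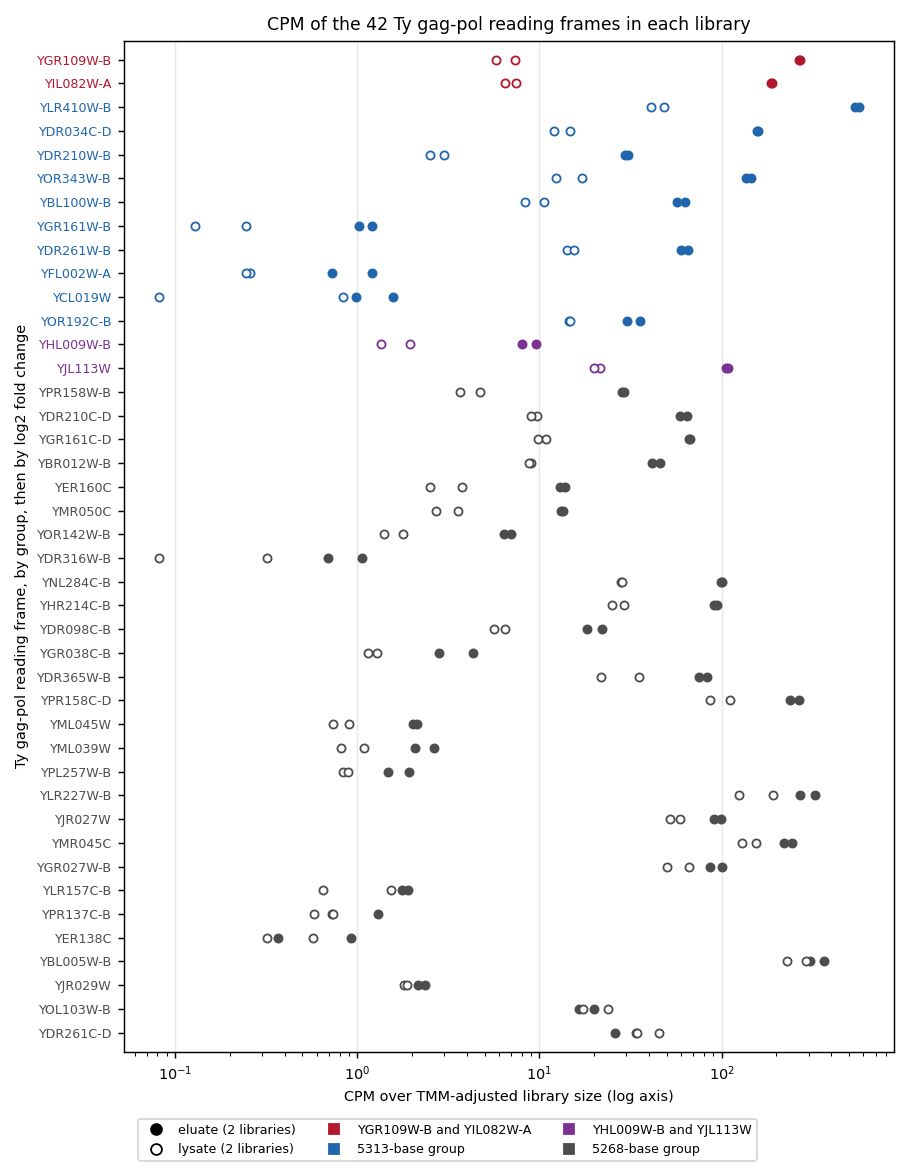
CPM of each of the 42 Ty gag-pol reading frames (horizontal log axis) in the 2 eluates (filled circles) and the 2 lysates (open circles), by group and then by fold change. In 38 rows both filled circles lie right of both open ones, and the rows of YGR109W-B and YIL082W-A show the widest gap.

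YGR109W-B and YIL082W-A were the most enriched Ty frames. YGR109W-B (sacCer3, chromosome VII, 707610 to 712254) had 269 and 267 CPM in the eluates, against 7.31 and 5.77 CPM in the lysates. Its log2 fold change was 5.34 (standard error 0.126, edgeR adjusted p = 2.42e-14). YIL082W-A, on chromosome IX from 205635 to 210132, had 188 and 187 CPM in the eluates, against 6.48 and 7.48 CPM in the lysates, and a log2 fold change of 4.76 (standard error 0.116). The eluate values of each frame were almost the same, and the fractions were far apart. Per kb that no other frame overlaps, YGR109W-B had 71.1 CPM in the eluate and 1.73 in the lysate, and YIL082W-A had 51.8 and 1.93. Summed, the pair averaged 459 ± 2.66 CPM over the eluates and 13.4 ± 0.357 CPM over the lysates (± SD, n = 2 per fraction). This is 34.1-fold, or a log2 fold change of 5.09 (standard error 0.114, edgeR adjusted p = 7.25e-14 on the table with summed groups, in which 44.2% of features were higher). Of the 188 other long frames, 7 had a higher fold change. The pair took 13.3% and 12.7% of the Ty counts of the eluates and 1.39% and 1.06% of those of the lysates. Leaving out 1 library at a time, the sum stayed between 5.06 and 5.12.

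All 10 frames of the 5313-base group were higher in the eluate, with log2 fold changes from 1.16 to 3.65 and a median of 2.62. YLR410W-B led the group and had the highest CPM of the Ty frames in both eluates. It lies on chromosome XII from 941483 to 946796 and had 570 and 543 CPM in the eluates, against 40.9 and 48.2 CPM in the lysates. Its log2 fold change was 3.65 (standard error 0.117, edgeR adjusted p = 2.95e-13). This 1 copy held 53.7% and 53.0% of the group's counts in the eluates, with lysate values of 38.6% and 38.7%. YDR034C-D, YDR210W-B and YOR343W-B followed at 3.56, 3.45 and 3.26. YOR192C-B, on chromosome XV from 704419 to 709732, had the smallest fold change of the group, 1.16, with 35.6 and 30.1 CPM in the eluates against 14.6 and 14.7 CPM in the lysates. At YCL019W, YFL002W-A and YGR161W-B every library had under 100 counts. YGR161W-B had 26 and 28 eluate counts against 2 and 3 lysate counts, and YFL002W-A had 26 and 20 against 4 and 3. Their log2 fold changes were 2.58 (standard error 0.515) and 1.88 (standard error 0.520), both past the threshold (edgeR adjusted p = 0.000250 and 0.00334). YCL019W had 34 and 27 eluate counts against 13 and 1 lysate counts, which were far apart, and passed at 1.32 (standard error 0.537, edgeR adjusted p = 0.0319). Summed, the group averaged 1049 ± 27.0 CPM over the eluates and 115 ± 13.2 CPM over the lysates (± SD, n = 2 per fraction). This is 9.15-fold, or a log2 fold change of 3.19 (standard error 0.120, edgeR adjusted p = 4.23e-12). Of the 188 other long frames, 43 lay above this value and 145 below. Without YLR410W-B, left out after the data were seen, the sum had 2.80.

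YJL113W and YHL009W-B had close fold changes at very different levels. YJL113W, on chromosome X from 198678 to 203325, had 105 and 109 CPM in the eluates, against 21.5 and 20.0 CPM in the lysates, and a log2 fold change of 2.36 (standard error 0.101, edgeR adjusted p = 6.04e-12). YHL009W-B, on chromosome VIII from 85909 to 91318, had 8.04 and 9.56 CPM in the eluates, against 1.35 and 1.95 CPM in the lysates, and a log2 fold change of 2.44 (standard error 0.233). Both were clear of overlap between the fractions. Per kb that no other frame overlaps, YJL113W had 23.1 CPM in the eluate and 4.47 in the lysate, and YHL009W-B had 2.11 and 0.396. The sum of the pair averaged 117 ± 3.66 CPM over the eluates and 22.3 ± 0.630 CPM over the lysates (± SD, n = 2 per fraction), a log2 fold change of 2.39 (standard error 0.0971, edgeR adjusted p = 9.87e-12). This sum lay near the middle of the other long frames, with 82 above and 106 below it.

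The 5268-base group changed least and was the most mixed. Of its 28 frames, 22 were higher and 1 lower in the eluate, and 5 did not pass. Their log2 fold changes ran from -0.41 to 2.80 with a median of 1.34, and 4 of the 28 lay above the median of the other long frames. Summed, the group had 1818 and 1997 CPM in the eluates, against 845 and 1087 CPM in the lysates. The log2 fold change of the sum was 0.98 (standard error 0.138, edgeR adjusted p = 9.69e-06), or 1.97-fold, below 155 of the 188 other long frames. The group held 52.5% and 55.4% of the Ty counts of the eluates but 85.6% and 87.2% of those of the lysates. Its lysate level was also the least even. Its share of all counts was 0.0897% in lysate 1 (95% exact binomial interval 0.0882% to 0.0912%) and 0.117% in lysate 2 (0.115% to 0.119%), and the sum had a log2 fold change of 0.80 without lysate 1 and 1.17 without lysate 2.

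The copies of this group with the most counts per kb had log2 fold changes from 0.37 to 1.35. YBL005W-B, on chromosome II from 221330 to 226598, had 306 and 363 CPM in the eluates, against 228 and 291 CPM in the lysates. Both eluates lay above both lysates, but eluate 1 and lysate 2 nearly touched. Its log2 fold change of 0.37 passed the test (standard error 0.124, edgeR adjusted p = 0.0117), but not without eluate 2 (0.22, adjusted p = 0.237), without lysate 1 (0.20, adjusted p = 0.0903) or with library sizes alone (0.18, adjusted p = 0.191). Without lysate 2 it was 0.55. YBL005W-B took 17.0% and 18.3% of the group's counts in the eluates, with lysate values of 26.8% and 26.6%. YLR227W-B, on chromosome XII from 593438 to 598706, had 271 and 327 CPM in the eluates, against 125 and 192 CPM in the lysates. YMR045C, on chromosome XIII from 357359 to 362627, had 220 and 243 CPM in the eluates, against 129 and 155 CPM in the lysates. YPR158C-D, on chromosome XVI from 850989 to 856257, had 237 and 267 CPM in the eluates, against 86.8 and 112 CPM in the lysates. The fractions did not overlap in these 3 frames, whose log2 fold changes were 0.92, 0.70 and 1.35 (standard errors 0.157, 0.107 and 0.119). The value of YLR227W-B was 0.64 without lysate 1 and 1.26 without lysate 2.

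YDR261C-D was the Ty frame that was lower in the eluate. It lies on chromosome IV from 987534 to 992349 and is the shortest of its group, with a second part of 3510 bases. It had 33.7 and 26.0 CPM in the eluates, against 34.3 and 45.1 CPM in the lysates, so that eluate 1 and lysate 1 were almost level. Its log2 fold change was -0.41 (standard error 0.145, edgeR adjusted p = 0.0153). The call was lost without eluate 2 (-0.25, adjusted p = 0.222) and without lysate 2 (-0.21, adjusted p = 0.137). YOL103W-B, on chromosome XV from 118000 to 123268, had 20.0 and 16.5 CPM in the eluates, against 17.4 and 23.7 CPM in the lysates. The fractions overlapped, and its log2 fold change of -0.16 did not pass (standard error 0.154, edgeR adjusted p = 0.319), although it did without lysate 1 (-0.38, adjusted p = 0.0218). Without lysate 2 its sign turned (0.058, adjusted p = 0.744).

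The other frames that did not pass had few counts. YJR029W had 51 and 59 eluate counts against 28 and 23 lysate counts, a log2 fold change of 0.30 (standard error 0.257, edgeR adjusted p = 0.286). YLR157C-B had 41 and 48 eluate counts against 24 and 8 lysate counts (0.67, standard error 0.345, edgeR adjusted p = 0.0803). The lysates of YLR157C-B were far apart, and it passed without lysate 1 (1.47, adjusted p = 0.00467) and narrowly with limma-voom (0.78, adjusted p = 0.0490). YPR137C-B had 28 and 20 eluate counts against 9 and 9 lysate counts, and YER138C had 20 and 10 against 5 and 7. Their log2 fold changes of 0.60 and 0.51 had standard errors of 0.426 and 0.561 (edgeR adjusted p = 0.192 and 0.397). YDR316W-B, with 23 and 19 eluate counts against 5 and 1 lysate counts, passed at 1.97 (standard error 0.573, edgeR adjusted p = 0.00478). Its value was 3.31 without lysate 1 and 1.40 without lysate 2. In all, 12 of the 42 frames had under 100 counts in every library, 9 of them in the 5268-base group and 3 in the 5313-base group.

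**Figure D3:**
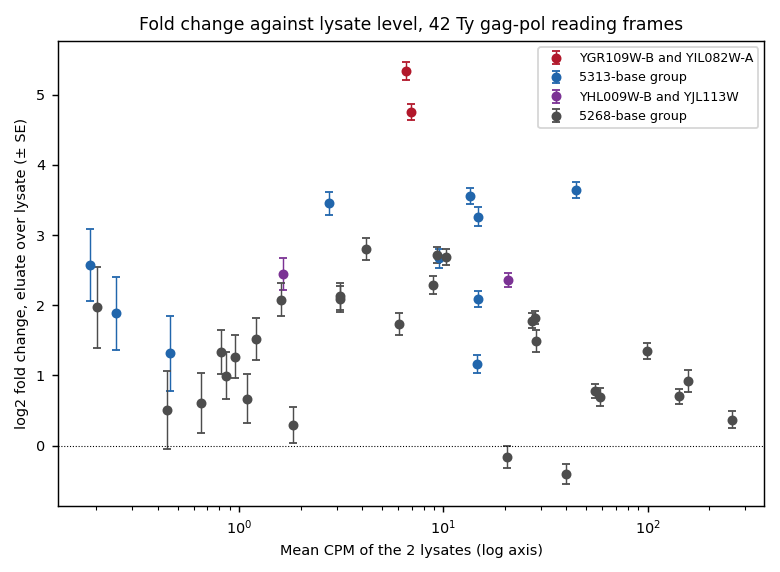
Log2 fold change of eluate over lysate with its standard error (vertical axis) against the mean CPM of the 2 lysates (horizontal log axis) for the 42 Ty gag-pol reading frames, coloured by group. Copies of the 5268-base group span levels from 0.201 to 260 CPM at fold changes from -0.41 to 2.80, and frames with few counts have wide error bars.

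Copies were ordered alike in the 4 libraries. Across the 42 frames, Spearman's rho of CPM was 0.996 between the eluates, 0.987 between the lysates, and from 0.874 to 0.882 between an eluate and a lysate. Within the 28 frames of the 5268-base group it was from 0.957 to 0.962 between fractions. The copies also kept their place in fold change, with a rho of 0.825 over the 42 frames and 0.813 within the 28 between eluate 1 over lysate 1 and eluate 2 over lysate 2. Fold change and level were only loosely related within the 28 frames. For eluate 1 over lysate 1 against the level in lysate 2, rho was -0.168, and for eluate 2 over lysate 2 against lysate 1 it was -0.212. These are descriptions over copies that share libraries and near-identical sequence. Copies and their neighbours were hardly related in fold change. Across the 42 frames, rho between the fold change of a copy and that of the nearest tested frame that is no Ty gag-pol frame was 0.0449 upstream and 0.0687 downstream.

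Copies that lie next to each other could differ. On chromosome IV, YDR261W-B of the 5313-base group and YDR261C-D of the 5268-base group face each other with 758 bases between their frames, and had log2 fold changes of 2.09 and -0.41. YPR158W-B and YPR158C-D, which both belong to the 5268-base group and face each other over 1008 bases, had 2.80 and 1.35. At the opposite pairs YDR210W-B and YDR210C-D (3.45 and 2.72) and YGR161W-B and YGR161C-D (2.58 and 2.69) the values lay closer. YJR027W and YJR029W, in tandem with 315 bases between them, had 0.78 and 0.30. YML045W and YML039W, also on 1 strand, had 1.33 and 1.27. The gaps of the pairs listed here ran up to 6898 bases, and the differences within a pair were not tested.

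The groups were set against each other within each library, where normalization cancels. For the 5313-base group over the 5268-base group, the log2 ratio of summed counts was -0.77 and -0.96 in the eluates, with lysate values of -3.0 and -3.13. The 5313-base group thus gained 2.21 on the log2 scale, or 4.62-fold, on the 5268-base group. YGR109W-B and YIL082W-A over the 5313-base group had -1.21 and -1.17 in the eluates, with lysate values of -2.94 and -3.23, a gain of 1.90. Over YHL009W-B and YJL113W the gain of that pair was 2.71, and over the 5268-base group it was 4.10. The 5313-base group gained 0.81 on YHL009W-B and YJL113W, and YHL009W-B and YJL113W gained 1.40 on the 5268-base group. In each of these 6 comparisons both eluates lay above both lysates. The group with the larger fold change was always put first, so a gain was the direction set beforehand. Since the 6 share the same 4 sums, they are not independent of each other. Each had p = 0.33 from an exact permutation test (two-sided), the smallest possible here, and p = 0.33 after Benjamini-Hochberg adjustment over the 6. Leaving out 1 library at a time turned none of the 6 round.

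**Figure D4:**
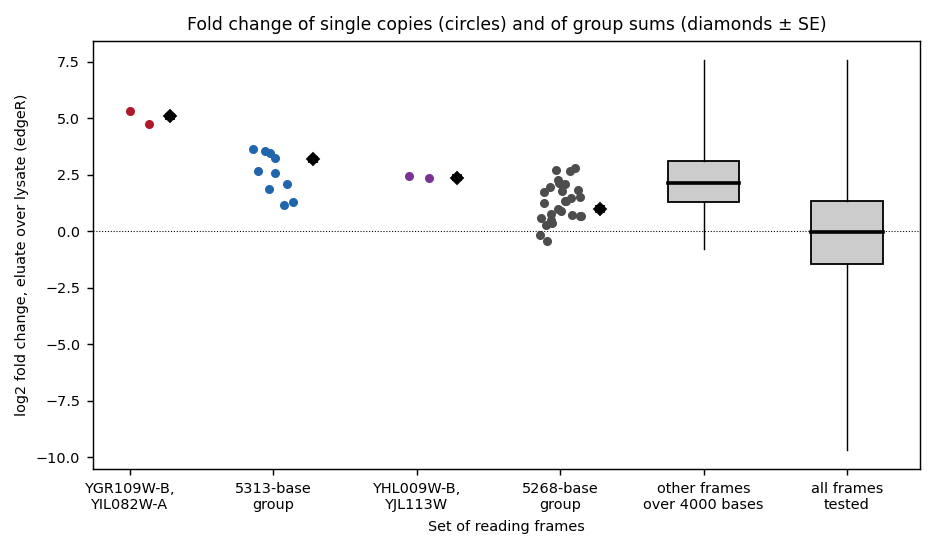
Log2 fold change of eluate over lysate (vertical axis) for the single copies of each Ty group (circles) and for the group sums (diamonds with standard errors), beside the median, quartiles and range of the other reading frames over 4000 bases and of all frames tested. The sums stand at 5.09, 3.19, 2.39 and 0.98, against medians of 2.14 for other long frames and -0.01 for all frames.

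Ratios against the other long frames must give the same order, since every group is divided by the same sum. They add only where each group stands against those frames. As above, the gag part may be missing from the Ty counts, and what this does to these ratios was not tested. For the summed counts of the 5268-base group over those of the other frames over 4000 bases, the log2 ratio was -7.35 and -7.38 in the eluates, with lysate values of -6.57 and -6.21. The 5268-base group thus lost 0.97 on them, while the 5313-base group gained 1.23, YGR109W-B and YIL082W-A gained 3.13, and YHL009W-B and YJL113W gained 0.42. For each group, the eluates and the lysates did not overlap (two-sided exact permutation test, p = 0.33 each, the smallest possible here).

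The same 1-base gap is annotated in 3 shorter frames of the table, which are cellular genes with a programmed frameshift. EST3, a telomerase subunit of 546 bases, had 2.63 and 2.45 CPM in the eluates, against 15.6 and 15.9 CPM in the lysates, and a log2 fold change of -2.63 (standard error 0.168, edgeR adjusted p = 6.86e-10). OAZ1, the ornithine decarboxylase antizyme of 879 bases, had 4.62 and 4.75 CPM in the eluates, against 26.0 and 23.8 CPM in the lysates, and -2.41 (standard error 0.143). ABP140, an actin-binding protein and tRNA methyltransferase of 1887 bases, had 196 and 193 CPM in the eluates, against 85.7 and 111 CPM in the lysates, and 0.99 (standard error 0.112). The shorter frames with the gap did not move one way.

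Host genes known to act on Ty elements were listed as 49 genes in 5 lists, all of them tested. The background over the whole table, 44.2% higher and 44.8% lower, is not matched for length. Of the tested frames over 4000 bases that are no Ty frames, 94.1% were higher. The host genes called lower were from 309 to 1767 bases long, and those called higher from 474 to 4587. Whether the lists differ from frames of like length was not tested. Of 14 SPT genes, named for suppressing the effects of Ty insertions and including chromatin and elongation factors, 10 were higher and 2 lower in the eluate, with a median log2 fold change of 1.15. SPT5 and SPT6, elongation factors, had 1.63 and 1.30, and both overlap other frames, so that their counts are uncertain. SPT4, the partner of Spt5, overlaps a frame on the opposite strand and fell by 3.15. SPT14, an enzyme of glycolipid anchor synthesis, fell by 0.72. Of 8 RTT genes, found as regulators of Ty1 transposition, 4 were higher and 1 lower with a median of 0.23. RTT107, a DNA repair scaffold, rose by 0.72, RTT10 did not pass (0.04, edgeR adjusted p = 0.657), and RTT109, a histone acetyltransferase, fell by 1.10. Of 8 activators of Ty1 transcription, 7 were higher and 1 lower with a median of 1.72. The general activators RAP1 and GCR1 rose by 1.75 and 1.95, and GCN4, the activator of amino acid synthesis, fell by 1.54.

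Of 8 genes of RNA decay and processing, 5 were higher and 3 lower with a median of 0.93. PAT1, a decapping activator, averaged 723 ± 91.4 CPM over the eluates and 33.3 ± 4.56 CPM over the lysates (± SD, n = 2 per fraction), a log2 fold change of 4.44 (standard error 0.139, edgeR adjusted p = 2.26e-13). XRN1, the cytoplasmic 5′ to 3′ exonuclease, rose by 1.58. DBR1, the lariat debranching enzyme, fell by 0.76. LSM1, of the complex that activates decapping, and POP2, of the Ccr4-Not deadenylase, fell by 1.44 and 0.65. Of 11 genes of RNA polymerase III and its factors, the machinery at whose genes Ty1 and Ty3 integrate, 8 were higher and 2 lower with a median of 0.92. RPO31 and RET1, the large catalytic subunits, rose by 1.99 and 1.10. RPC40, a subunit shared with RNA polymerase I, and TFC8, of transcription factor TFIIIC, had log2 fold changes of -2.10 and -0.22. TFC8 was close to the threshold (edgeR adjusted p = 0.0377), and of this list 1 gene was lower in place of 2 with DESeq2 or with any library left out, and 3 with library sizes alone. Genes that were lower were named after their values were seen.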

How the data were processed

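RNA was sequenced from 2 eluates and 2 lysates, which the study calls biological replicates. The authors deposited 1 table of read counts per open reading frame for the 4 libraries, not normalized. Per the labels, STAR 2.7.9a, featureCounts of Subread 2.0.3 and the build sacCer3 were used. The treatment of multiple hits, overlaps and strand is in none of the sources used here. The authors' DESeq2 1.38.3 comparison of the fractions (means, fold changes, standard errors and p-values) was not used.

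Members were the frames of exactly 2 exons with a gap of 1 base and a length over 4000 bases. All 42 were found by locus tag in RefSeq (R64), which names no Ty family, so copies were grouped by geometry. Members, groups and host gene lists were chosen with earlier results of these data known. Named with values were the members of groups of at most 5 copies, the 5 with the highest and 5 with the lowest counts per kb, the 3 with the highest and 3 with the lowest fold change, those without the call of most members, and the 2 most abundant genes of each host list by mean CPM. Further copies, among them those of adjacent pairs, and host genes that were lower were named after their values were seen.

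The quasi-likelihood test of edgeR 4.0.16 (R 4.3.3) was run on all frames after filterByExpr and TMM, with fraction as the term, Benjamini-Hochberg adjustment over 6191 frames and a threshold of 0.05. Group sums went through the same test in place of their copies. Standard errors are the fold change over the root of F. The procedure was tested on simulated data. Shares and ratios of groups, 1 value per library, were compared by exact permutation (scipy 1.17.1). DESeq2 1.42.0, limma-voom (limma 3.58.1), other scalings and filters, a replicate term and leaving out each library were the alternatives.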

Additional observations from a re-analysis of the deposited data

How the results depend on the processing

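Counts of near-identical copies depend on how reads that fit several copies were handled, for which no source used here gives the options, and a copy with few counts has a wide error. A planned repeat on copies with mostly unique 75-base windows was not run, since no genome sequence was used here. Each group sum kept its direction and its call under every alternative run. Leaving out 1 library at a time gave log2 fold changes from 0.80 to 1.17 for the 5268-base group, from 3.07 to 3.31 for the 5313-base group, from 5.06 to 5.12 for YGR109W-B and YIL082W-A and from 2.33 to 2.45 for YHL009W-B and YJL113W. Without its copy with most counts, an alternative chosen after seeing the data, the sum was 1.15 for the 5268-base group and 2.80 for the 5313-base group. The number of Ty frames higher in the eluate, 36 of 42, was 34 with DESeq2 and with library sizes alone, and 37 with limma-voom. It was 19 of 21 where only frames with at least 100 counts in each library were kept. The number lower, 1, ranged from 0 to 2 with a library left out. The median log2 fold change of 1.80 was 1.62 with library sizes alone, which shifted the median of all frames by -0.18, and 2.15 with a minimum of 10 CPM in 2 libraries. The Ty share of counts, with a log2 ratio of 1.46 and from 1.29 to 1.66 with a library left out, had -0.30 among frames over 4000 bases. YOL103W-B, at -0.16, ranged from -0.38 without lysate 1 to 0.058 without lysate 2. RNA polymerase III genes lower in the eluate numbered 1 in place of 2 with DESeq2, 1 with any library left out and 3 with library sizes alone. With the replicate number as a block, 36 Ty frames were higher and 1 lower, with a median of 1.80, and none of the 18 Ty frames named by the rule changed its call. The numbers are not known to pair the samples (correlation of the deviations of same-numbered libraries -0.0416).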
